A study of Mus musculus and Homo sapiens with 28 samples.

Results

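The integrated stress response and the unfolded protein response were followed through 36 genes in human renal carcinoma cells given a CHK1 inhibitor and in mouse renal tumours given an ATR inhibitor. The genes were taken by name from a list of the pathways' components, with no threshold on a measured value, though the list was drawn up with earlier results of these data known. All 36 were found in both tables, among 56269 gene rows in human and 46078 in mouse. The human libraries came from 786-O, an established clear cell renal carcinoma line with a wild-type (WT) genotype label, left untreated (n = 2) or given 25 nM of the inhibitor for 48 h (n = 2), in 2 separate experiments. CHK1 is the kinase that ATR activates when DNA replication stalls. The sample labels and the design text name the compound LY2606368, and the treatment protocol names LY2603618, which is a different CHK1 inhibitor. The mouse libraries came from Renca, a mouse renal carcinoma line, injected under the skin in Matrigel and grown to about 100 mm3 before treatment. Their labels were WT untreated (n = 7), WT VE822 (n = 6), SETD2 KD untreated (n = 6) and SETD2 KD VE822 (n = 5), where KD stands for knockdown and SETD2 is a histone methyltransferase. VE822, the ATR inhibitor, was given by oral gavage at 60 mg/kg on 5 days per week. The sources used here do not give the mice's strain, sex or age, the means of the knockdown, whether the knockdown line is 1 clone, or the duration of dosing.

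Both responses begin with a sensor and end in transcription. Kinases such as PERK (EIF2AK3) and GCN2 (EIF2AK4) phosphorylate the initiation factor eIF2, which lowers general translation and raises translation of the factor ATF4. ATF4 drives CHOP (DDIT3), TRIB3, CHAC1 and enzymes of amino acid supply, and PPP1R15A, also called GADD34, brings a phosphatase to eIF2 and so restores translation. In the endoplasmic reticulum (ER), IRE1 (ERN1) splices the messenger RNA of XBP1 and ATF6 is released from the membrane, and both act on genes of ER chaperones and of ER-associated degradation. These are transcript levels, which do not report eIF2 phosphorylation, XBP1 splicing or protein.

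Human counts were recovered from variance-stabilised log2 values and came to 23956007 and 23492424 in the untreated libraries and 21447859 and 20834400 in the treated ones. Mouse levels are on DESeq2's regularised log2 scale (rlog), from which depth cannot be read. The labels do not say that the mouse libraries came from separate animals, so p-values measure only the spread between libraries. Setd2, the targeted gene, had an rlog of 10.83 ± 0.07 (SD, n = 7) without drug under the WT label, against 10.81 ± 0.07 (SD, n = 6) under the SETD2 KD label. With VE822 its rlog was 10.03 ± 0.29 (SD, n = 6) under the former and 9.72 ± 0.21 (SD, n = 5) under the latter. Without drug Setd2 therefore does not bear out the knockdown label. Setd2 followed the VE822 label instead, without overlap under either genotype label. It ran from 10.74 to 10.91 in WT untreated and from 9.58 to 10.28 in WT VE822. With the SETD2 KD label it ran from 10.70 to 10.88 untreated and from 9.42 to 9.96 with VE822. Whether the drug, the knockdown or the labelling underlies this was not tested, and each mouse direction given here is between libraries as they were labelled. A set of 5 mouse libraries stood apart from the rest. WT untreated 4 and WT VE822 1, 2 and 4 had a mean rlog of skeletal muscle markers above 6, and SETD2 KD VE822 4 lay at a root mean square distance of 0.47 from its group median, against at most 0.27 in any other library. Of the renal identity markers, all 10 rows were above a count of 0 in 786-O and all 9 rows found in mouse were detected in the tumours.

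The promoters of the mouse genes show which members carry the short sequences through which these factors are known to act. RefSeq promoter windows on GRCm38.p6 were matched for 31 members, in 35 windows, and Atf6, Ppp1r15b, Wars, Cars and Hyou1 were not among them. The 250 bases before each start were searched on both strands. The C/EBP-ATF response element (CARE, TGATGNAA) was in 4 of 35 member windows, or 11.4%, against 3.45% of all 32851 windows. The ER stress response element (ERSE, CCAAT and CCACG with 9 bases between them), the site of ATF6 with NF-Y, was in 5 windows, or 14.3%, against 0.113%. ERSE-II (ATTGG and CCACG with 1 base between them) was in 1 window, or 2.86%, against 0.0304%, and the letters of the unfolded protein response element (UPRE, TGACGTGG) were in none, against 0.563%. The members were chosen as known components of these pathways, so a higher share of the pathways' motifs among them is not an independent result. No match overlapped another. Calr carried an ERSE and Herpud1 a CARE and the ERSE-II, and their stretches are not printed. The matched stretches are shown because they hold the letters of motifs through which ATF4 and ATF6 are known to act. Whether either factor binds or acts at these matches was not tested. They are written 5′ to 3′ on the gene's strand, with the motif in capitals and a reverse-strand match written as its complement.
Asns (CARE, chr6:7693210-7693247, minus strand): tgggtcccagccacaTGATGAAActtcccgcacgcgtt
Chac1 (CARE, reverse, chr2:119351034-119351071, plus strand): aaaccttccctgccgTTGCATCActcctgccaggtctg
Vldlr (CARE, reverse, chr19:27216805-27216842, plus strand): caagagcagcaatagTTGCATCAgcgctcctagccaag
Hspa5 (ERSE, chr2:34772010-34772058, plus strand): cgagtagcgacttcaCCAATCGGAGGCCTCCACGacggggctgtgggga
Hsp90b1 (ERSE and ERSE reverse, chr10:86705518-86705671, minus strand): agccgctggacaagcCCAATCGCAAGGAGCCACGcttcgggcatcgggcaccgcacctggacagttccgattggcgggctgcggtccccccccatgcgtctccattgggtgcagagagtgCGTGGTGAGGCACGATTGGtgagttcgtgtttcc
Creld2 (ERSE, reverse, chr15:88819505-88819553, plus strand): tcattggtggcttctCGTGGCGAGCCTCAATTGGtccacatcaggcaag
Dnajc3 (ERSE, chr14:118937812-118937860, plus strand): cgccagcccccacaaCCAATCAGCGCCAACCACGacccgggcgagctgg

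**Figure D1:**
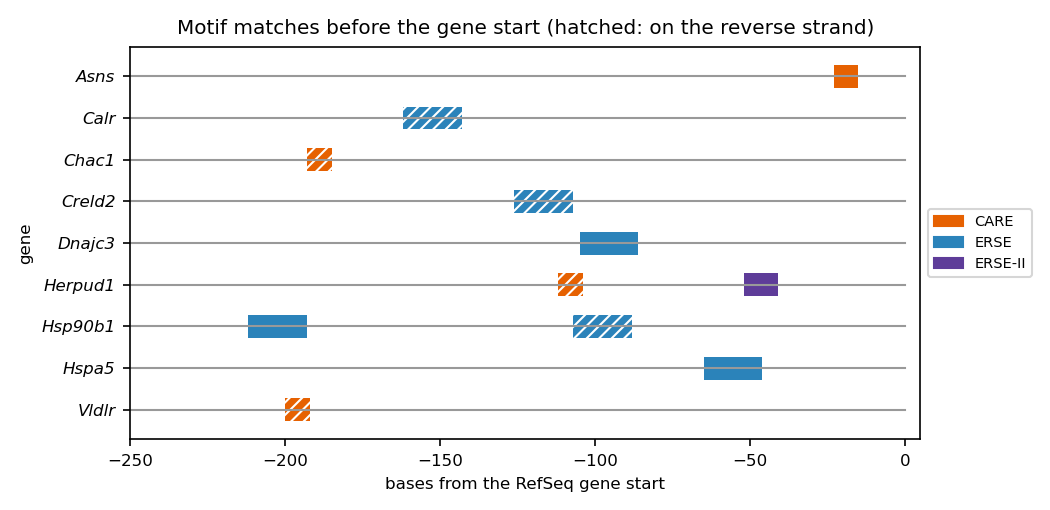
Motif matches in the 250 bases before the RefSeq start of 9 mouse members, in bases from the start on the gene's strand, with reverse-strand matches hatched. The 5 ERSE-bearing genes encode ER chaperones or their cofactors, Hsp90b1 has a pair of matches, and Herpud1 has a CARE match from -112 to -105 and an ERSE-II match from -52 to -42.

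The comparison of treated with untreated 786-O cells asked what CHK1 inhibition changed. PPP1R15A rose most of the 36 members, by 4.61 ± 0.11 (log2, SE), and the transcription factors DDIT3, CEBPB, XBP1, CEBPG and ATF4 rose with it, as did the sensor ERN1. DDIT4, PSAT1, PDIA4, ASNS, VLDLR and ATF6 fell. Most ER chaperones did not pass the test. With limma, Benjamini-Hochberg adjusted over all genes, 18 of 36 members were called at 0.05, 12 higher and 6 lower, against 13.2% of 29353 genes tested (7.05% higher, 6.16% lower). Among the 12731 genes with a mean value of at least 5, which hold 35 of the members, 27.1% were called, 13.5% higher and 13.6% lower. The median difference of the members was 0.16, or 0.13 without PHGDH, beside 0.08 over all genes. Adjusted p-values of the called members ran from 0.0232 to 0.0400. No member was called in limma without the variance trend, or without untreated replicate 1 or untreated replicate 2, a fit in which the lone library left is assumed to vary like the other group. Without treated replicate 1 the test called 5 higher and 0 lower, and without treated replicate 2 it called 6 higher and 1 lower, while no called member changed sign.

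PPP1R15A had 766 and 677 counts in the untreated libraries, or 32.0 and 28.8 CPM (counts scaled to the library's total), and 14710 and 16028 counts, or 686 and 769 CPM, in the treated ones. The treated level was 21.4 times the untreated level in the first experiment and 26.7 times in the second, and the groups were far from overlapping. Ranked by size of rise among the 12731 better-measured genes it held rank 6. Its constitutive relative PPP1R15B, which serves the same phosphatase without stress, stood at 108 and 104 CPM untreated and at 164 and 178 CPM treated. The difference of PPP1R15B was 0.74 ± 0.08 (limma adjusted p 0.0259), and no library of one group reached the other.

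Among the transcription factors 5 of 6 rose and ATF5 did not pass. DDIT3 stood at 12.9 and 13.4 CPM untreated and at 61.7 and 70.1 CPM treated, a difference of 2.33 ± 0.10. CEBPB, a basic leucine zipper factor that pairs with ATF4 and CHOP, stood at 33.8 and 37.1 against 115 and 125 CPM, a difference of 1.80 ± 0.09. XBP1 stood at 152 and 151 against 329 and 363 CPM, a difference of 1.24 ± 0.08. CEBPG, another partner of ATF4, was 1.95 and 2.18 times higher in the treated library of the experiments and differed by 1.09 ± 0.08. ATF4 itself moved less, from 289 and 286 to 469 and 469.5 CPM, a difference of 0.76 ± 0.05. In each of these 5 genes both treated libraries lay above both untreated ones, and each had a limma adjusted p of 0.0232. With 2 libraries a group such separation adds little to the test on the same values, and its share over all genes was not counted. ATF5, whose translation is raised by eIF2 phosphorylation like that of ATF4, differed by 0.33 ± 0.07 (limma adjusted p 0.0659).

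The sensors did not move together. ERN1 had 194 and 195 counts untreated and 696 and 857 treated, or 8.10 and 8.30 against 32.5 and 41.1 CPM, and differed by 2.15 ± 0.15 (limma adjusted p 0.0232). ATF6 fell from 85.5 and 89.6 to 55.2 and 59.2 CPM, a difference of -0.56 ± 0.07 (limma adjusted p 0.0316). EIF2AK4 had an adjusted p of 0.0692 for a difference of -0.46 ± 0.10, and passed with the experiment as a replicate block (limma adjusted p 0.0227). EIF2AK3 differed by -0.03 ± 0.18 and its groups overlapped. The 4 sensors therefore gave 1 rise, 1 fall and 2 that did not pass.

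TRIB3, a pseudokinase that feeds back on ATF4, rose from 201 and 178 to 307 and 342 CPM, a difference of 0.83 ± 0.11 (limma adjusted p 0.0320). CHAC1, which degrades glutathione, had 19.5 and 18.8 CPM untreated and 28.3 and 22.7 CPM treated, and its difference of 0.45 ± 0.14 did not pass (limma adjusted p 0.126). DDIT4, which encodes REDD1, an inhibitor of mTORC1, went the other way. It stood at 122 and 141 CPM untreated and at 66.3 and 62.7 CPM treated, a difference of -0.96 ± 0.09 (limma adjusted p 0.0246), with no overlap. VLDLR, a lipoprotein receptor under ATF4 control, fell from 96.3 and 88.6 to 54.6 and 57.0 CPM, a difference of -0.67 ± 0.09 (limma adjusted p 0.0315).

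The enzymes of amino acid supply split. ASNS, asparagine synthetase, fell from 141 and 158 to 89.0 and 83.7 CPM, a difference of -0.73 ± 0.08 (limma adjusted p 0.0260). PSAT1, the aminotransferase of serine synthesis, fell from 381 and 366 to 226 and 194 CPM, a difference of -0.78 ± 0.10 (limma adjusted p 0.0310). MTHFD2, a mitochondrial folate enzyme, rose by 0.58 ± 0.09 (limma adjusted p 0.0400), from 144 and 129 to 195 and 196 CPM. In all 3 the groups did not overlap, a separation whose share over all genes was not counted. PSPH, the last enzyme of serine synthesis, differed by -0.49 ± 0.10 (limma adjusted p 0.0624, and 0.0219 with the replicate block). It also passed with quantile normalisation (limma adjusted p 0.0485) and limma-voom on recovered counts (adjusted p 0.0286). SHMT2, mitochondrial serine hydroxymethyltransferase, differed by -0.17 ± 0.09. PHGDH, the first enzyme of that pathway, had 0 counts in 3 libraries and 1 count in treated replicate 1, so no fold is given. Of the 2 tRNA synthetases listed, CARS rose by 0.58 ± 0.08 (limma adjusted p 0.0310) and WARS differed by 0.23 ± 0.12.

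Of 9 ER chaperones and cofactors, 1 rose, 1 fell and 7 did not pass. DNAJB9, a cochaperone of BiP and a known XBP1 target, went from 182 and 170 counts to 257 and 236, or from 7.60 and 7.24 to 11.98 and 11.3 CPM, a difference of 0.67 ± 0.10 (limma adjusted p 0.0385). PDIA4, a disulfide isomerase, fell from 429 and 491 to 255 and 273 CPM, a difference of -0.74 ± 0.08 (limma adjusted p 0.0271). HSPA5, which encodes BiP, differed by 0.38 ± 0.07 (limma adjusted p 0.0569, and 0.0241 with the replicate block). HSP90B1, HYOU1, CALR, CRELD2, SDF2L1 and DNAJC3 lay between -0.33 and 0.19. Of the degradation genes SEL1L differed by -0.42 ± 0.11 (limma adjusted p 0.0828, and 0.0273 with the replicate block), EDEM1 by -0.16 ± 0.16 and HERPUD1 by 0.05 ± 0.16.

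**Figure D2:**
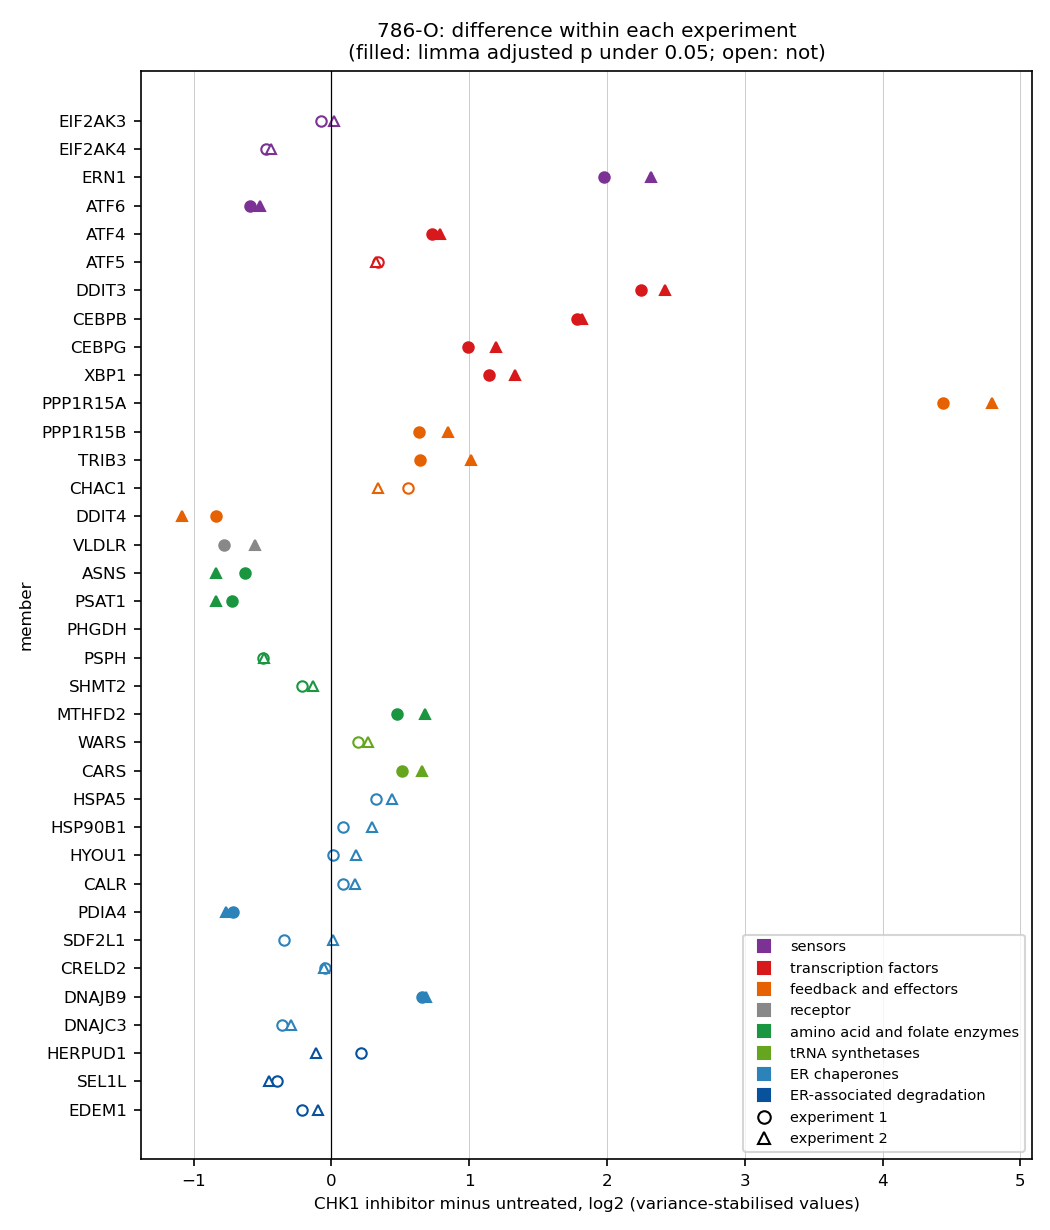
Difference between treated and untreated 786-O cells within each experiment (horizontal axis, log2 of variance-stabilised values) for 35 members by role, with experiment 1 as circles, experiment 2 as triangles, and filled symbols at a limma adjusted p under 0.05. PPP1R15A stands alone at the right, DDIT3 and ERN1 come next in both experiments, and DDIT4 and PSAT1 lie to the left of 0; PHGDH, at 0 to 1 count, is not drawn.

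Genes of the same pathways outside the 36 were also counted in 786-O, and their counts stand beside 7.05% of all genes higher and 6.16% lower, or 13.5% and 13.6% at a mean value of at least 5. A count near those shares is not a result about its list. Of 37 other ATF4 and CHOP targets 8 rose and 5 fell, with ATF3 (3.28 ± 0.20) and SLC3A2 (1.94 ± 0.05) at the top and SHMT1 (-1.48 ± 0.06) and PCK2 (-1.37 ± 0.09) at the bottom, each at a limma adjusted p of 0.0232, and with the replicate block 10 fell. Of 18 other aminoacyl-tRNA synthetases 7 rose and 1, EPRS, fell. Of 15 genes of eIF2, its exchange factor eIF2B and their regulators 3 rose and 1 fell, and of 16 cytosolic heat shock genes HSF1 alone rose. Other ER chaperone, export and degradation genes gave 4 rises and 9 falls of 44, with the small modifier UFM1 at 1.21 and WFS1 at -1.09. Of 10 renal identity markers 3 fell and 0 rose, and the part of this in the results on the members was not tested.

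The comparison of VE822 with untreated tumours asked which members differed between libraries with these labels, under each genotype label. In both, Ddit4, Ddit3, Trib3 and Psat1 were lower and Mthfd2, Pdia4 and Creld2 were higher in the treated libraries, while Ppp1r15a and Atf4 did not pass. In libraries labelled WT limma called 11 of 36 members, 3 higher and 8 lower, against 34.7% of 15916 genes (17.2% higher, 17.5% lower). In libraries labelled SETD2 KD it called 11 of 36, 5 higher and 6 lower, against 22.2% of genes (10.6% higher, 11.6% lower). Among the 8266 genes with a mean rlog of at least 9, which hold all 36, the shares were 38% (13.6% higher, 24.4% lower) and 23.5% (7.49% higher, 16% lower). The members' share of calls, 11 of 36, was near this background and is not a result about the list as a whole. Their median difference was -0.01 under the WT label and 0.00 under the SETD2 KD label, beside 0.01 over all genes in each. With chromosome medians removed the split became 5 higher and 6 lower under the WT label and 6 higher and 4 lower under the SETD2 KD label. With quantile normalisation it became 6 and 7, and 7 and 5. Without the 5 libraries that stand apart it was 5 and 7, and 6 and 5. All differences below are on the rlog scale, and in bulk tumour RNA fewer cells of a type and less RNA per cell cannot be told apart. Treated and untreated libraries did not overlap for 7 of 36 members under the WT label and 7 under the SETD2 KD label. The share of all genes separated in this way was not counted, so this is not a result about the members.

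Markers of other cells moved between the same groups. T cell markers were higher, 5 of 6 under the WT label and 6 of 6 under the SETD2 KD label, and their summed level (log2) went from 7.49 to 8.30 up to 7.99 to 9.28 and from 7.64 to 8.10 up to 8.55 to 9.53. Fibroblast markers were higher in 5 of 7 under the WT label and 0 of 7 under the SETD2 KD label, with summed levels of 13.10 to 15.21 untreated and 14.67 to 17.56 treated, and 13.30 to 14.99 and 13.95 to 15.43. Renal identity markers were lower in 5 of 9 under each label. Their summed level went from 17.06 to 17.24 down to 16.56 to 16.88 and from 17.01 to 17.29 down to 16.69 to 16.92. Macrophage markers were lower in 2 of 6 under each label. Of 4 plasma cell markers tested, of a secretory cell rich in ER chaperones, Sdc1 was lower under both labels and Igha higher under the WT label. The defining markers Derl3, Mzb1, Pou2af1 and Tnfrsf17 were under an rlog of 3 in every group, and Jchain in every group but WT VE822. The mean rlog of the whole plasma cell list ran from 3.55 to 3.72 untreated and 3.63 to 4.66 treated under the WT label. It ran from 3.53 to 3.64 and from 3.68 to 4.04 under the SETD2 KD label. Neutrophil, endothelial and red blood cell markers gave 0 calls under both labels, the adipocyte list gave 1, Lep, in each, and the muscle list gave 1, Mylpf, under the WT label. The part of these cells in the results on the members was not tested.

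Of the feedback and effector genes Ddit4 and Trib3 fell under both labels. Ddit4 (chr10:59949669-59951834, minus strand) ran from 14.30 to 14.65, median 14.48, in libraries labelled WT untreated and from 13.77 to 14.15, median 13.95, in those labelled WT VE822. With the SETD2 KD label it ran from 14.18 to 14.67, median 14.43, untreated and was 14.14, 13.91, 13.89, 13.98 and 13.82 in the 5 treated libraries. No treated library reached an untreated one under either label, and the differences were -0.50 ± 0.08 (limma adjusted p 3.92e-05) and -0.50 ± 0.09 (limma adjusted p 0.000169). Trib3 (chr2:152337422-152344032, minus strand) ran from 13.05 to 13.30, median 13.16, in WT untreated and from 12.70 to 12.98, median 12.89, in WT VE822. It ran from 13.10 to 13.40, median 13.18, in SETD2 KD untreated and was 12.93, 12.74, 12.85, 12.96 and 12.77 in SETD2 KD VE822. Here too the groups did not overlap, with differences of -0.29 ± 0.06 (limma adjusted p 0.000600) and -0.35 ± 0.06 (limma adjusted p 0.000343). Chac1 did not pass, with differences of -0.11 and -0.10 (limma adjusted p 0.0635 and 0.182), nor did the receptor Vldlr, with -0.15 and -0.14 (limma adjusted p 0.412 and 0.545).

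Ppp1r15a varied widely within groups and did not follow treatment. It ran from 10.68 to 11.30, median 10.83, in WT untreated and from 10.35 to 11.22, median 10.98, in WT VE822. It ran from 10.67 to 11.43, median 10.91, in SETD2 KD untreated and was 11.17, 10.86, 10.94, 10.04 and 10.67 in SETD2 KD VE822, where replicate 4, one of the libraries that stand apart, was lowest. The groups overlapped throughout, with differences of 0.00 ± 0.16 and -0.25 ± 0.18 (limma adjusted p 0.994 and 0.339). Ppp1r15b differed by 0.01 ± 0.04 and 0.05 ± 0.05.

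Of the transcription factors Ddit3 passed under both labels and Cebpg under one. Ddit3 (chr10:127290774-127296288, plus strand) ran from 10.27 to 10.60, median 10.45, in WT untreated and from 9.96 to 10.20, median 10.03, in WT VE822, without overlap, a difference of -0.42 ± 0.08 (limma adjusted p 0.000456). With the SETD2 KD label it ran from 10.16 to 10.61, median 10.38, untreated and was 10.18, 9.89, 9.87, 10.45 and 9.90 treated, a difference of -0.32 ± 0.09 (limma adjusted p 0.0130). Treated replicates 1 and 4 lay within the untreated range there. Neither call held with chromosome medians removed (limma adjusted p 0.0727 and 0.220), and the second was lost in a fit of its groups alone (limma adjusted p 0.0622). The GENCODE vM21 annotation places Mars, the methionyl tRNA synthetase gene, across Ddit3 on the opposite strand, and Mars differed by -0.41 and -0.25. Another protein-coding entry named Ddit3, without a row in the mouse data, overlaps the gene tested on the same strand. Strand-specific counting is not recorded in the sources used here, so reads from any stretch that Ddit3 and Mars share cannot be assigned by strand. The same holds for Ppp1r15a with Tulp2, Atf5 with Nup62 and Il4i1, Shmt2 with Ndufa4l2, Psph with Cct6a, Cebpb with Tmem189 and Wars with Wdr25. These overlaps were read from whole gene spans, and whether exons are shared was not checked.

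Cebpg ran from 10.99 to 11.26, median 11.16, in WT untreated and from 10.66 to 11.33, median 11.24, in WT VE822, a difference of 0.02 ± 0.08. With the SETD2 KD label it ran from 10.85 to 11.09, median 11.005, untreated and was 11.11, 11.16, 11.30, 11.48 and 11.34 treated, without overlap, a difference of 0.29 ± 0.09 (limma adjusted p 0.0243). That call was lost without SETD2 KD untreated 4 (adjusted p 0.0580), SETD2 KD VE822 4 (0.0603) or SETD2 KD VE822 5 (0.0581), by limma. Atf4 ran from 14.16 to 14.54, median 14.31, in WT untreated and from 14.14 to 14.49, median 14.34, in WT VE822. It ran from 14.16 to 14.45, median 14.25, in SETD2 KD untreated and was 14.37, 14.20, 14.25, 14.04 and 14.18 in SETD2 KD VE822. The 4 ranges of Atf4 overlapped, with differences of 0.02 ± 0.07 and -0.07 ± 0.07. Atf5, Cebpb and Xbp1 lay between 0.00 and 0.17 in both comparisons, and Xbp1 came nearest to the threshold under the SETD2 KD label (limma adjusted p 0.0559).

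Ern1, the only sensor called, ran from 11.47 to 11.70, median 11.60, in WT untreated and from 10.98 to 11.54, median 11.27, in WT VE822, a difference of -0.34 ± 0.07 (limma adjusted p 0.00102). Under the SETD2 KD label it ran from 11.51 to 11.79, median 11.62, untreated and was 11.25, 11.30, 11.58, 11.57 and 11.57 treated. That difference, -0.18 ± 0.08, did not pass (limma adjusted p 0.110), and the groups overlapped under both labels. Eif2ak3, Eif2ak4 and Atf6 lay between -0.01 and 0.13 and none passed.

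The amino acid enzymes again split. Psat1 (chr19:15904678-15947337, minus strand) ran from 13.30 to 13.40, median 13.36, in WT untreated and from 12.92 to 13.28, median 13.15, in WT VE822, a difference of -0.22 ± 0.05 (limma adjusted p 0.00206). It ran from 13.34 to 13.54, median 13.38, in SETD2 KD untreated and was 13.16, 13.03, 13.20, 12.97 and 13.06 in SETD2 KD VE822, a difference of -0.33 ± 0.05 (limma adjusted p 0.000163). The groups did not overlap, and without the 5 libraries that stand apart the WT value was -0.13 (limma adjusted p 0.0559). Mthfd2 (chr6:83305691-83325908, minus strand) ran from 12.17 to 12.36, median 12.21, in WT untreated and from 12.55 to 12.72, median 12.63, in WT VE822. The difference of 0.39 ± 0.07 (limma adjusted p 0.000122) was without overlap.

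Under the SETD2 KD label Mthfd2 ran from 12.09 to 12.41, median 12.33, untreated and was 12.51, 12.53, 12.73, 12.15 and 12.60 treated, a difference of 0.21 ± 0.07 (limma adjusted p 0.0409). Replicate 4 lay within the untreated range and the other treated libraries lay above it. The call was lost in 9 of 20 alternatives, among them the fit of the compared groups alone (limma adjusted p 0.133) and leaving out SETD2 KD untreated 1 (0.110), 4 (0.0808) or 5 (0.0622) or SETD2 KD VE822 1 (0.0654), 2 (0.0786), 3 (0.141) or 5 (0.107). Psph ran from 12.16 to 12.36, median 12.29, in SETD2 KD untreated and was 12.20, 12.03, 11.99, 11.90 and 11.92 in SETD2 KD VE822, a difference of -0.28 ± 0.06 (limma adjusted p 0.00241) in which only replicate 1 entered the untreated range. Under the WT label Psph differed by -0.08 ± 0.06. Shmt2 had the smallest called difference, -0.13 ± 0.05 under the SETD2 KD label (limma adjusted p 0.0379). SETD2 KD VE822 4, which stands apart, was the lowest treated library under this label for all 6 amino acid enzymes. Without it Psat1 differed by -0.30 (limma adjusted p 0.000324) and Psph by -0.25 (limma adjusted p 0.00527), while Shmt2 differed by -0.10 and did not pass (limma adjusted p 0.0985). Asns and Phgdh lay between -0.08 and 0.13 and did not pass. Cars differed by -0.21 ± 0.06 under the WT label (limma adjusted p 0.00888), with 12.43 to 12.84, median 12.52, untreated and 12.26 to 12.38, median 12.33, treated and no overlap, and by -0.06 ± 0.07 under the SETD2 KD label. Wars differed by -0.12 and -0.13 (limma adjusted p 0.0508 and 0.0737).

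Of the 9 chaperones 2 were higher and 1 lower under the WT label, and 3 higher and 0 lower under the SETD2 KD label. Pdia4 (chr6:47796141-47813430, minus strand) ran from 12.23 to 12.51, median 12.33, in WT untreated and from 12.44 to 12.66, median 12.58, in WT VE822, a difference of 0.21 ± 0.05 (limma adjusted p 0.00115). It ran from 12.15 to 12.35, median 12.29, in SETD2 KD untreated and was 12.54, 12.64, 12.68, 12.54 and 12.56 in SETD2 KD VE822, a difference of 0.32 ± 0.05 (limma adjusted p 9.27e-05). The groups overlapped under the WT label and not under the SETD2 KD label. Creld2 (chr15:88819646-88826683, plus strand), an ER protein with disulfide isomerase activity, ran from 11.38 to 11.98, median 11.48, in WT untreated and from 11.74 to 12.12, median 11.90, in WT VE822. It ran from 11.38 to 11.74, median 11.46, in SETD2 KD untreated and was 11.84, 11.73, 11.98, 11.76 and 11.88 in SETD2 KD VE822. The differences were 0.28 ± 0.09 (limma adjusted p 0.0205) and 0.33 ± 0.10 (limma adjusted p 0.0181), with overlap in both. They lost the call without WT VE822 5 (limma adjusted p 0.0570) and without SETD2 KD VE822 3 (limma adjusted p 0.0531).

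Hyou1, a chaperone induced by low oxygen, ran from 12.27 to 12.42, median 12.36, in SETD2 KD untreated and was 12.42, 12.55, 12.68, 12.69 and 12.64 in SETD2 KD VE822, where replicate 1 met the untreated range. The difference of 0.24 ± 0.07 (limma adjusted p 0.0188) fell short without SETD2 KD VE822 3 (limma adjusted p 0.0511), and under the WT label it was 0.09 ± 0.07. Hsp90b1, which encodes GRP94, was lower under the WT label by -0.18 ± 0.06 (limma adjusted p 0.0307) and differed by -0.02 ± 0.07 under the SETD2 KD label. Hspa5 differed by -0.04 ± 0.09 and 0.18 ± 0.10, and Calr by 0.05 ± 0.06 and 0.15 ± 0.06, and neither passed. The groups of Calr did not overlap under the SETD2 KD label. Sel1l, the adaptor of the ER ubiquitin ligase, ran from 12.66 to 12.80, median 12.72, in WT untreated and from 12.44 to 12.58, median 12.55, in WT VE822 without overlap, a difference of -0.19 ± 0.04 (limma adjusted p 0.00191). Its difference under the SETD2 KD label was 0.05 ± 0.05. Sdf2l1, Dnajb9, Dnajc3 and Edem1 lay between -0.09 and 0.08, and Herpud1 differed by -0.10 ± 0.12 and -0.20 ± 0.13, none past the threshold. Of the 5 genes with an ERSE, Creld2 was higher under both labels and Hsp90b1 lower under the WT label, and none of the 4 with a CARE was called in the tumours.

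**Figure D3:**
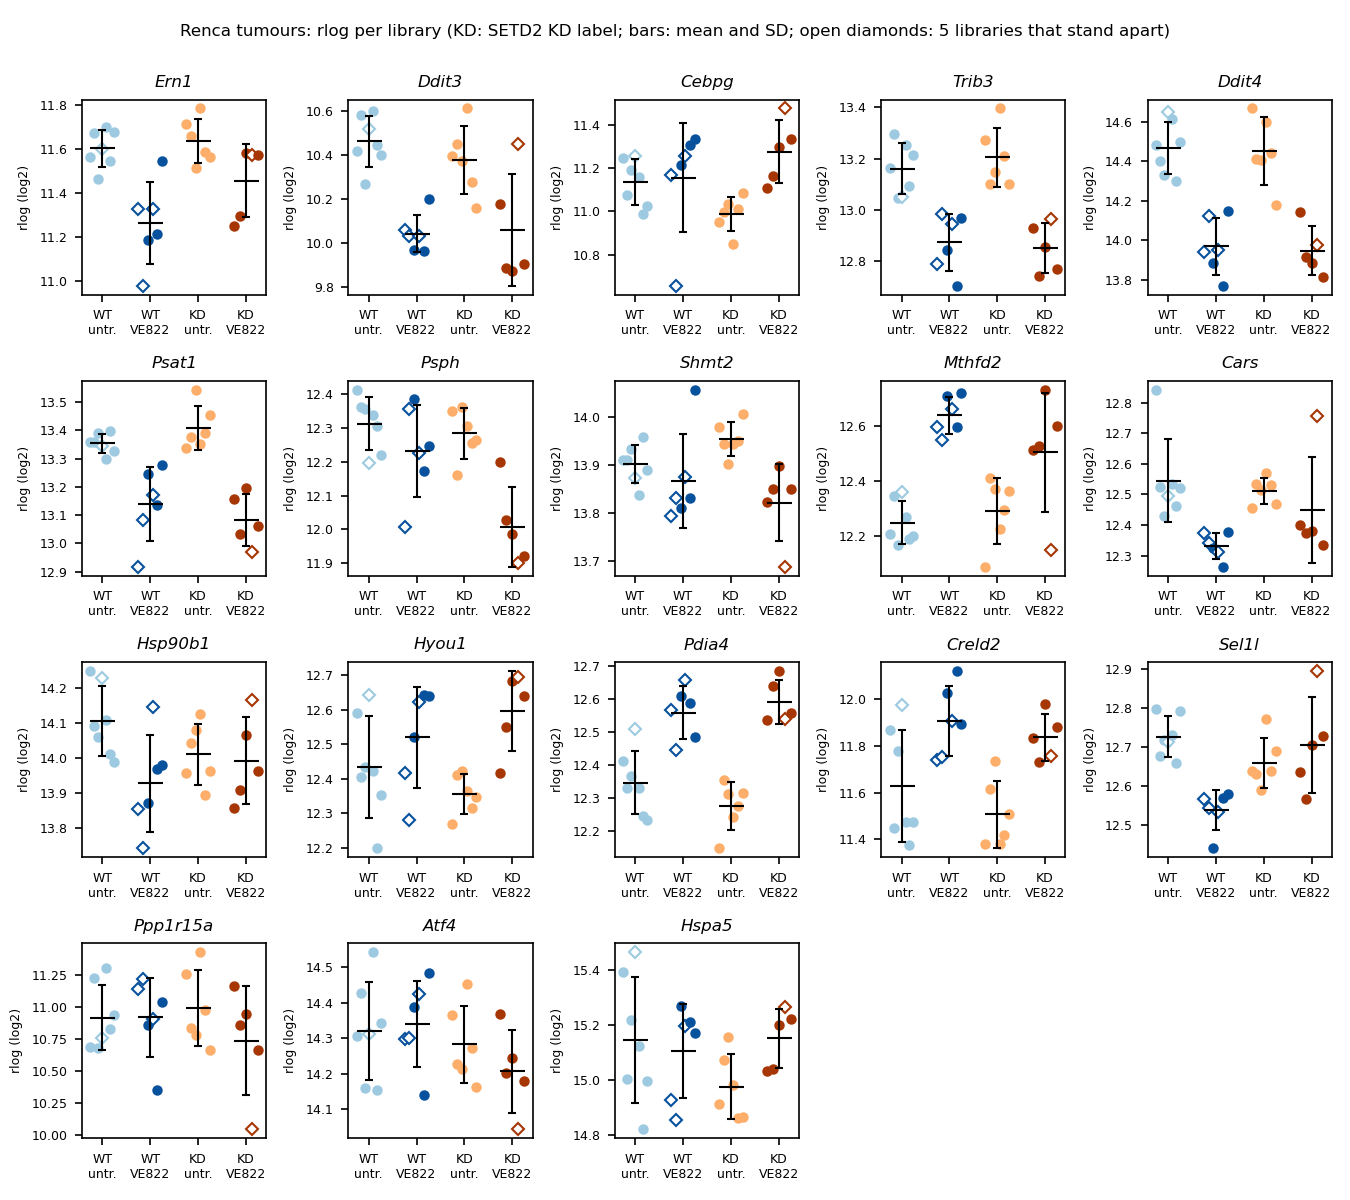
The rlog value (log2) of the 15 members called in the tumours and of Ppp1r15a, Atf4 and Hspa5 in each library by label, with the group mean and SD as black bars and the 5 libraries that stand apart as open diamonds. Ddit4, Trib3 and Psat1 separate treated from untreated libraries under both labels. Ddit3, Mthfd2, Cars and Sel1l do so under the WT label only, and Pdia4, Cebpg and Shmt2 under the SETD2 KD label only. Ppp1r15a and Atf4 overlap throughout. Calr, which also separates under the SETD2 KD label, is not drawn, and the share of all genes that separate was not counted.

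The median difference in the tumours also varied between chromosomes. Over 477 genes with a mean rlog of at least 8, chromosome 10 had a median difference of -0.26 under the WT label and -0.19 under the SETD2 KD label, and it holds Ddit3, Ddit4, Shmt2 and Hsp90b1. Chromosome 6, with Pdia4, Mthfd2, Asns, Edem1 and Eif2ak3, had medians of 0.13 and 0.04 over 471 genes, and chromosome 8, with Calr and Herpud1, -0.12 in both over 553. With the median of its chromosome removed Ddit3 differed by -0.16 and -0.13 and no longer passed (limma adjusted p 0.0727 and 0.220). Ddit4 passed with smaller differences, -0.24 (limma adjusted p 0.0250) and -0.32 (limma adjusted p 0.0108), and under the WT label it did not pass when the 5 libraries that stand apart were also left out (-0.25, limma adjusted p 0.0662). Trib3, on chromosome 2, passed at -0.22 and -0.32, and Mthfd2 at 0.26 and 0.16. Hsp90b1 turned to 0.08 under the WT label (limma adjusted p 0.276), and Shmt2 turned to 0.23 (limma adjusted p 0.00441) and 0.05 (limma adjusted p 0.594). Pdia4 lost its call under the WT label (0.08, limma adjusted p 0.251), Sel1l lost its own (-0.08, limma adjusted p 0.180), and Calr passed under both (0.18 and 0.27, limma adjusted p 0.0101 and 0.00129). The cause of the chromosome medians was not tested.

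**Figure D4:**
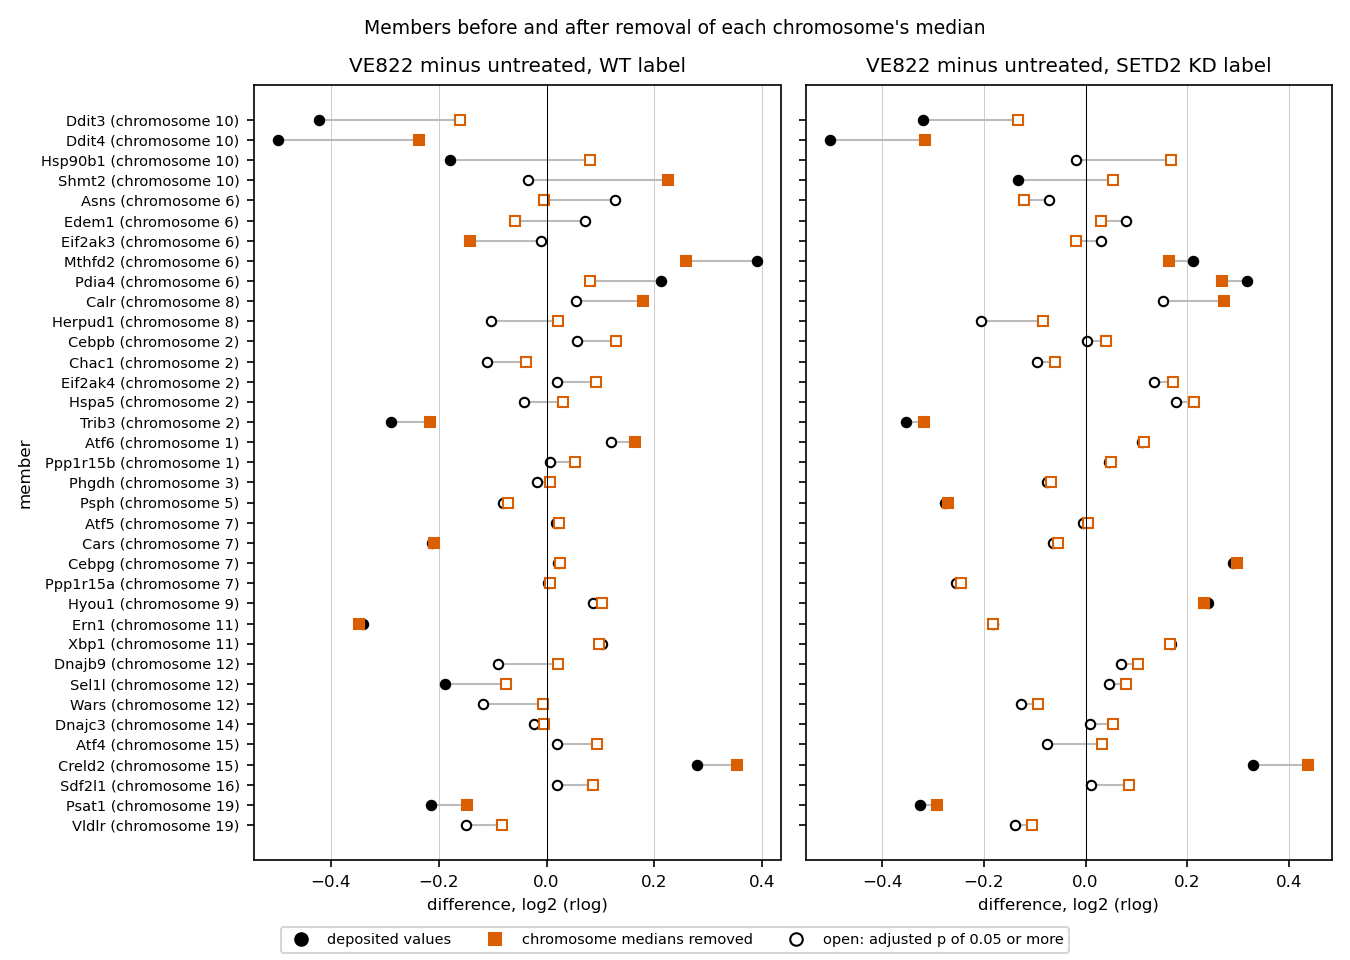
Difference between VE822 and untreated libraries (log2, rlog) of each member under each label, as deposited (black circles) and after removal of its chromosome's median (orange squares), with open symbols at a limma adjusted p of 0.05 or more. The 4 chromosome 10 members at the top shift to the right by 0.26 and 0.19. Trib3 shifts less far to the right, and Ern1, Cars, Psph, Cebpg and Hyou1 shift little.

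Between the genotype labels no member differed past the threshold. Without treatment limma called 0 of 36 members and 0% of 15916 genes, and 0 members had an unadjusted p under 0.05. The members farthest apart were Hspa5 (-0.17 ± 0.09), Herpud1 (-0.16 ± 0.12) and Dnajb9 (-0.16 ± 0.08), SETD2 KD minus WT. Under VE822 limma called 0 of 36 members, beside 0.0126% of genes (0.00628% in each direction) or 0.0121% at a mean rlog of at least 9, and 5 members had an unadjusted p under 0.05. The nearest were Psph (-0.23 ± 0.06, limma adjusted p 0.156) and Sel1l (0.17 ± 0.05, limma adjusted p 0.173). The difference between the labels in the VE822 response was tested itself, with 0 of 36 members and 0% of genes called and 3 members, Cebpg, Psph and Sel1l, at an unadjusted p under 0.05. Sel1l had the lowest adjusted p among members, at 0.424, for a difference of 0.23 ± 0.06. For the 8 members called under one label only, the interaction's limma adjusted p ran from 0.424 to 0.657, so their responses are not shown to differ between labels. These counts were 0 in every alternative fit listed for these comparisons.

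In other genes of the pathways, the ATF4 and CHOP targets outside the members gave more falls than rises in treated tumours. Of 36 tested, 19 were lower and 1, Cth, was higher under the WT label, with a median of -0.19, and 17 were lower and Cth higher under the SETD2 KD label, with a median of -0.21. The share of lower genes among all tested was 17.5% and 11.6%, or 24.4% and 16% at a mean rlog of at least 9. The share of higher genes was 17.2% and 10.6%, or 13.6% and 7.49%, and a count near these shares is not a result about its list. Ero1l (-0.58) and the amino acid transporter Slc7a5 (-0.54) fell most under the WT label, and Slc7a5 (-0.69) and Gpt2 (-0.59), an alanine aminotransferase, under the SETD2 KD label. Lower counts were 17 and 16 without the 5 libraries that stand apart, and 16 and 11 with chromosome medians removed. Of 18 other tRNA synthetases 7 were lower and 2 higher under the WT label, with Mars at -0.41 and Aars at -0.37. Under the SETD2 KD label 6 were lower and 0 higher, with Aars at -0.36 and Mars at -0.25. Mars spans Ddit3 on chromosome 10, which had median differences of -0.26 under the WT label and -0.19 under the SETD2 KD label. Reads that Mars may share with Ddit3 cannot be assigned by strand. Of 44 other ER genes 11 were higher and 8 lower under the WT label, and 8 higher and 2 lower under the SETD2 KD label, with Creb3l1 at 0.89 under the former, Edem2 at 0.49 under the latter, and Pdia6 (0.18 and 0.44) and Manf (0.36 and 0.42) higher in both. With chromosome medians removed the count under the SETD2 KD label became 13 higher and 1 lower. Shares over all genes in these alternative fits are not given here. Of 16 eIF2 and eIF2B genes 3 were higher and 3 lower, and 0 and 3, and of 16 cytosolic heat shock genes 2 were higher and 4 lower, and 0 and 1.

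The cell line and the tumours received different inhibitors for different times, so their values stand side by side here without a test of the difference. Of 36 members 18 were called in 786-O, 15 in at least 1 tumour comparison, and 9 in both systems. Of the 9, 4 were higher in 786-O and lower in a tumour comparison, and 1 was lower and then higher. The others were 2 higher in both and 2 lower in both. Ern1 and Cars were called in the tumours under the WT label only, and Cebpg under the SETD2 KD label only. The share of all genes called in both systems was not counted, so these counts are not a result about the list. Ddit3 differed by 2.33 in 786-O and by -0.42 and -0.32 in the tumours, where neither call held with chromosome medians removed. Trib3 differed by 0.83, -0.29 and -0.35, and Ern1 by 2.15, -0.34 and -0.18. Cars differed by 0.58, -0.21 and -0.06, and Pdia4 by -0.74, 0.21 and 0.32. Ddit4 was lower in all 3 comparisons, by -0.96, -0.50 and -0.50, as was Psat1, by -0.78, -0.22 and -0.33, and Mthfd2 was higher in all 3, by 0.58, 0.39 and 0.21, the last of which was lost in 9 of 20 alternatives. PPP1R15A differed by 4.61 in 786-O and by 0.00 and -0.25 in the tumours, where it did not pass. A further 12 members were called in none of the 3 comparisons, namely the factor ATF5, the kinases EIF2AK3 and EIF2AK4, CHAC1, PHGDH, WARS, the chaperones HSPA5, CALR, SDF2L1 and DNAJC3, and the degradation genes HERPUD1 and EDEM1. Of these, EIF2AK4 and HSPA5 passed in 786-O with the replicate block (limma adjusted p 0.0227 and 0.0241). Both also passed with quantile normalisation (limma adjusted p 0.0344 and 0.0492) and with limma-voom on recovered counts (adjusted p 0.0400 and 0.0244).

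**Figure D5:**
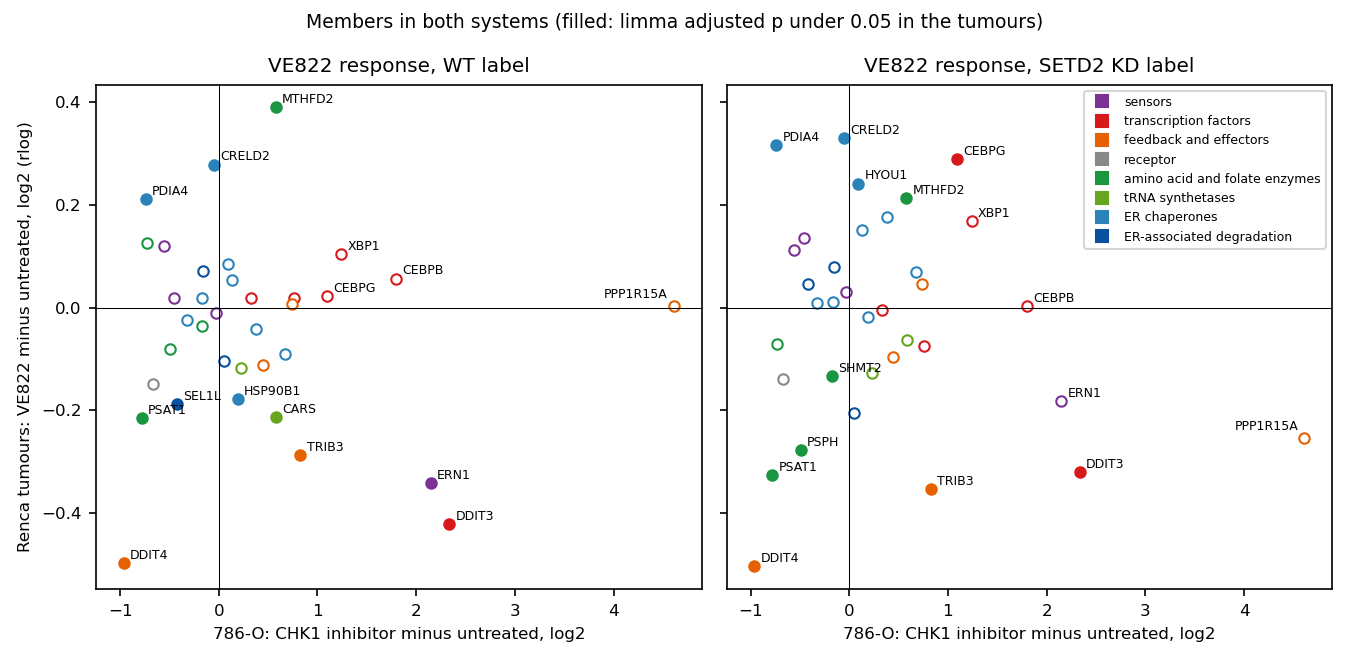
Difference in 786-O (horizontal axis, log2 of variance-stabilised values) against the difference in Renca tumours (vertical axis, log2, rlog) for 35 members under the WT label (left) and the SETD2 KD label (right), coloured by role and filled where the tumour comparison passed a limma adjusted p of 0.05. PPP1R15A lies far to the right, DDIT3 and ERN1 lie at lower right, and DDIT4 and PSAT1 at lower left.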

How the data were processed

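RNA was sequenced in 4 libraries of 786-O and 24 of Renca tumours. Per the submitters' processing notes, the tools were FastQC, TopHat, HTSeq and DESeq2 with builds hg38 and GRCm38, without versions. The authors deposited log2 values per gene, variance-stabilised for human and regularised (rlog) for mouse, with no count table used here. Each human value was turned back into a read count through the transformation, all of them whole within 0.1, and CPM is that count scaled to the library's total. No count can be read from the rlog values, which also shrink the differences of low genes.

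Members and lists were chosen with earlier results of these data known. limma 3.58.1 (R 4.3.3) was fitted to the deposited log2 values with a variance trend, and two-sided p-values were adjusted by Benjamini-Hochberg over all genes, with a threshold of 0.05. In human 29353 genes were tested, after 26916 constant rows were left out. In mouse 15916 genes passed a floor on mean rlog of 3 and entered a model of 4 group means over 24 libraries. The scripts were tested on simulated data. All 36 members are accounted for, and levels are given for PPP1R15A, DDIT3, ATF4, TRIB3 and the 10 called members with the largest difference per comparison. These are values per library in 786-O, where CEBPG is given as ratios, and in SETD2 KD VE822. In the other tumour groups they are the range and median. From each other list the genes named are among the called ones with the largest differences in each direction, except Pdia6 under the WT label and Manf under the SETD2 KD label, which were named after their values were seen. The result of 1 marker gene is not reported here.

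The human libraries came in 2 experiments, and the deviations of same-numbered libraries from their group means correlated at 0.16 over 29353 genes and 0.51 over the 12731 with a mean of at least 5, so the replicate block was fitted as an alternative. Mouse gene names and positions came from GENCODE vM21, which lacked 849 of the mouse rows. Other alternatives were the filter on low values, quantile normalisation, removal of chromosome medians, library weights, a fit of the compared groups alone, limma-voom on recovered counts, leaving out each library, and leaving out the 5 libraries that stand apart, the last chosen after seeing the data.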

Additional observations from a re-analysis of the deposited data

Results flagged for a closer look

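In 8 of 144 pairs of a member and a tumour group, 1 library lay farther from the others than Dixon's 95% limit, and chance gives about 1 in 20. Cars was highest in WT untreated 1 at an rlog of 12.84, against a group median of 12.52. In libraries labelled WT VE822, Cebpg was lowest in replicate 2 at 10.66 (median 11.24), Shmt2 was highest in replicate 6 at 14.06 (median 13.83), and Sel1l was lowest in replicate 3 at 12.44 (median 12.55). In libraries labelled SETD2 KD untreated, Eif2ak3 was highest in replicate 6 at 10.63 (median 10.50) and Xbp1 was highest in replicate 3 at 11.96 (median 11.78). In SETD2 KD VE822 4, which holds 2 of the 8 and stands apart from its group over all genes, Asns was lowest at 13.36 (median 13.94) and Cars was highest at 12.76 (median 12.38).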

How the results depend on the processing

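Depth is unknown for the tumours, and 2 libraries a group limit the precision in 786-O. In 786-O the calls were 13 higher and 9 lower with the replicate block, 15 and 10 among genes with a mean of at least 5, 13 and 9 with quantile normalisation, 13 and 8 with limma-voom on recovered counts, and 0 and 0 without the variance trend. Leaving out 1 library gave 0 to 6 higher and 0 to 1 lower in 786-O, where the lone library left in a group is assumed to vary like the other group, and 0 to 0 in the comparisons between labels and in the interaction. Over members and settings in 786-O, 224 values kept their side of the threshold, 79 lost it, 19 gained it and 0 called values changed sign.

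In the tumours, 750 values kept their side under the WT label and 675 under the SETD2 KD label, with 18 and 29 lost, 19 and 13 gained, and 5 and 3 turned in sign. Under the WT label the number higher was 6 with quantile normalisation, 5 with chromosome medians removed, 5 without the 5 libraries that stand apart, and 6 with both of these, which also left 3 lower. Under the SETD2 KD label 8 were higher with both. Leaving out 1 library gave 2 to 3 higher and 7 to 9 lower under the WT label. Under the SETD2 KD label it gave 2 to 6 higher and 5 to 6 lower, with 3 higher without SETD2 KD untreated 4 or SETD2 KD VE822 5 and 2 without SETD2 KD VE822 3. With chromosome medians removed, and then with the 5 libraries left out as well, Shmt2 turned to 0.23 and 0.25 under the WT label and to 0.053 and 0.14 under the SETD2 KD label, and Hsp90b1 to 0.081 and 0.11 under the WT label. With both, Hsp90b1 stood at 0.18 under the SETD2 KD label and Dnajb9 at 0.22 under the WT label. Ddit3 under the SETD2 KD label had a limma adjusted p of 0.0622 when fitted on its groups alone. The cause was not tested.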
